A study of Mus musculus with 4 samples.

Results

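The cells described here are hippocampal barcodes that carry transcripts of border macrophages, of MHC class II, or of both, and few transcripts of microglia. They were chosen by their UMIs (unique transcript counts), among barcodes with at least 200 genes. A cell entered by the macrophage route with 4 or more UMIs summed over Pf4, Mrc1, Ms4a7 and Cd163. It entered by the class II route with 5 or more UMIs over H2-Aa, H2-Ab1 and H2-Eb1. In both cases P2ry12, Tmem119 and Gpr34 together had at most 2 UMIs, and S100a8 with S100a9 had under 10. The rule found 93 of 6281 cells (1.48%). Of these, 74 passed the macrophage route alone, 6 passed both routes and 13 passed the class II route alone. In what follows, the macrophage route means the 80 cells that passed it with or without the class II route, and the class II route means the 13 that passed it alone.

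The study compared male Dp(10)2Yey mice with male WT littermates at 3 months of age, all on a C57BL/6J background (n = 2 mice for each genotype). Dp(10)2Yey mice are hemizygous for a duplication of the stretch of mouse chromosome 10 from Prmt2 to Pdxk, and WT mice carry no duplication. Hippocampi were dissociated with enzymes, cleared of debris and run as 4 single-cell libraries with 10x 3′ chemistry, with 1 mouse of each genotype on each of 2 preparation days. Values for single libraries stand below in the order WT replicate 1, WT replicate 2, Dp(10)2Yey replicate 1, Dp(10)2Yey replicate 2.

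Border macrophages live in the meninges, the perivascular spaces and the choroid plexus, where they take up debris, lipoproteins and iron and sample antigen from blood and cerebrospinal fluid. Microglia sit in the parenchyma and keep a separate program of surface receptors. MHC class II molecules show peptides to CD4+ T cells, and dendritic cells, B cells and some border macrophages carry them, while microglia of a healthy adult brain carry little.

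The macrophage route held 16, 16, 8 and 40 cells. As a share of all cells that is 1.57% (exact binomial 95% interval 0.897 to 2.53), 0.949% (0.543 to 1.54), 0.590% (0.255 to 1.16) and 1.80% (1.29 to 2.45). The highest and the lowest share both came from Dp(10)2Yey mice, so the genotypes overlapped. Mean shares were 1.20% in Dp(10)2Yey and 1.26% in WT, a difference of -0.0604 percentage points (exact two-sided permutation test, p = 1, where 2 against 2 libraries cannot give less than 0.33). The class II route held 5, 2, 3 and 3 cells, or 0.489% (0.159 to 1.14), 0.119% (0.0144 to 0.428), 0.221% (0.0457 to 0.646) and 0.135% (0.0279 to 0.395). Here a WT library was highest and the other WT library lowest. The difference in means was -0.126 points (exact permutation p = 1). These intervals hold counting error alone, and no barcode that 2 libraries shared (8 over all pairs) belonged to the cells chosen. For reading the values below, 2226 cells with 3 or more UMIs of P2ry12, Tmem119 and Gpr34 that failed both routes served as microglia.

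**Figure D1:**
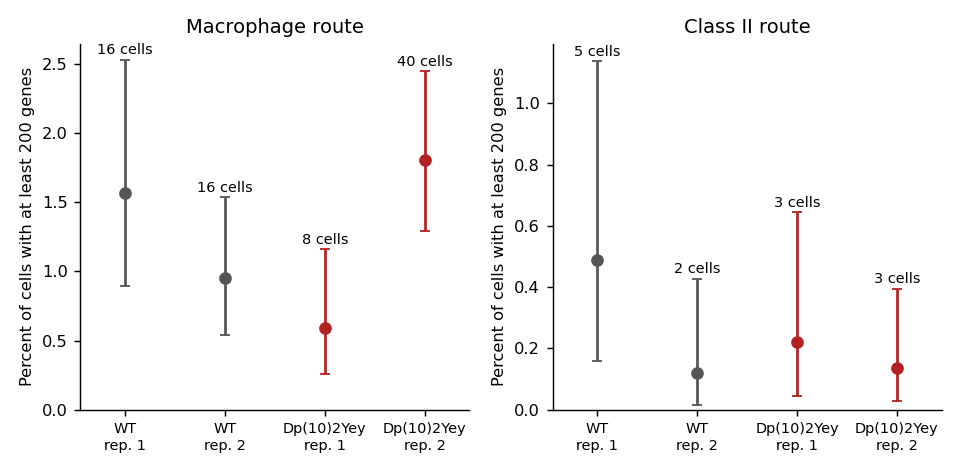
Share of cells with at least 200 genes (percent) that entered by each route in each of the 4 libraries, with exact 95% binomial intervals. The 2 Dp(10)2Yey libraries lie at both ends of the macrophage route.

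Cells near the macrophage threshold were few. Outside it, 2 cells had 3 UMIs and 13 had 2 UMIs of the 4 macrophage genes, and just inside it 7 had 4 UMIs and 4 had 5. Among barcodes within the limits on microglia and S100 transcripts, no cell had 3, 4 or 5 class II UMIs without the macrophage route, and 1 had 6. By the rule the cells chosen had at most 2 microglia UMIs: 62 of 93 had 0, 22 had 1 and 9 had 2. On the macrophage route, 49 of the 80 cells had 0. The limit on microglia transcripts kept out 14 barcodes that passed a route. Of these, 12 passed the macrophage route, 5 of them with exactly 3 microglia UMIs. The limit on S100a8 and S100a9 kept out 0. The 2 routes shared few cells: 71 of 80 macrophage-route cells had 0 class II UMIs, and 10 of 13 class II route cells had 0 macrophage UMIs.

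**Figure D2:**
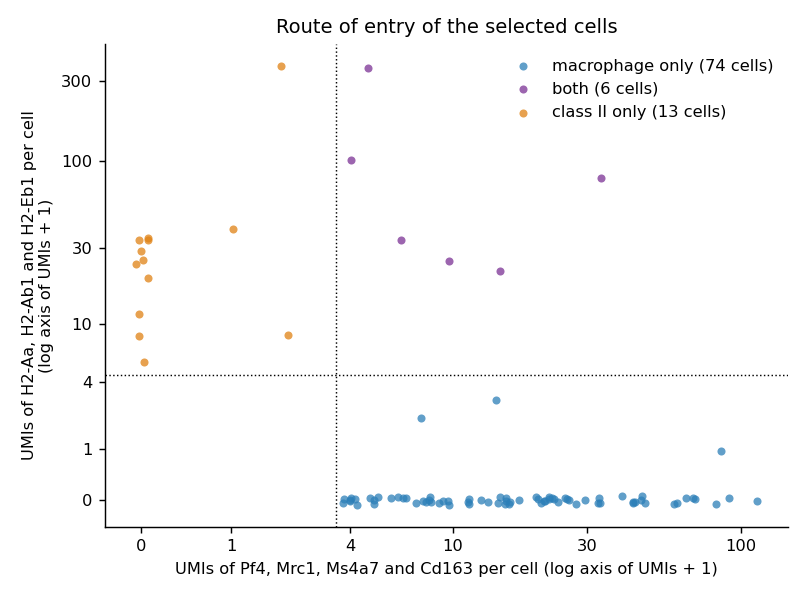
Summed UMIs of the 4 macrophage genes (horizontal) and the 3 class II genes (vertical) in each of the 93 cells on log axes, coloured by route, with the thresholds as dotted lines. Points are slightly displaced so that equal values can be seen; most cells lie along 1 of the 2 axes.

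Macrophage-route cells were shallow. Their median depth was 1758 UMIs (1243, 1870.5, 1822.5 and 1935.5 by library) with 766 genes, against 3962 UMIs and 1604 genes in microglia. The sets were chosen by absolute UMIs of P2ry12, Tmem119 and Gpr34, at most 2 on the route and 3 or more in microglia. The part of this choice in the depths was not tested. Median mitochondrial RNA was 5.48% on the macrophage route and 2.44% in microglia. Since depth alone changes how often a gene is seen, detection is also given after thinning cells to 500 UMIs. Of the 93 cells, 2 were called doublets and 3 had over 20% mitochondrial RNA; they were kept in the results below.

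The genes of the rule are a description here and were not tested. Pf4, a platelet-type chemokine, was seen in 78 of 80 macrophage-route cells, with a median of 8 UMIs and up to 86. Mrc1, the mannose receptor, was seen in 66 cells, Ms4a7, a four-span membrane protein, in 61, and Cd163, the receptor for haemoglobin bound to haptoglobin, in 32. Most cells thus carried several of the genes: 26 had all 4, 31 had 3, 17 had 2 and 6 had 1, and in 5 every rule UMI was from Pf4. Pf4 stood at 6168, 3291, 3188 and 5171 CPM (UMIs of a gene over the summed cells of a library, scaled to the same total everywhere). Cd163 stood at 53.9, 193, 520 and 373 CPM. Pf4 was thus high in all 4 libraries with overlapping genotypes, while Cd163 was lower in both WT libraries. In microglia Pf4 came to 8 UMIs over 2226 cells. At 500 UMIs a cell Pf4 was seen in 85% of macrophage-route cells and 0.0449% of microglia.

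Markers of border macrophages that the rule did not use fit the name of the macrophage route. Of 8 such markers (Lyve1, F13a1, Cbr2, Folr2, Stab1, Cd209f, Clec10a and Dab2), 3 or more summed UMIs were found in 61 of 80 macrophage-route cells, 37 of 2226 microglia and 0 of 13 class II route cells. These markers were chosen with earlier results of these data known, so they are no independent support for the name. Microglia markers outside the rule were present too, with 3 or more UMIs in 43 of the 80 cells, and 200 of the 427 UMIs were from Fcrls. The lists for plasmacytoid dendritic cells, for T and NK cells and for mast cells had 0 UMIs. For dendritic cells 105 of 135 UMIs were Cd209a, with Flt3, Xcr1, Clec9a and Ccr7 at 0.

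Of the 80 macrophage-route cells, 7 had 10 or more UMIs of a class other than immune cells (neural cells, vessel and fibroblast cells, red blood cells, choroid plexus or megakaryocytes). The lists for dendritic cells, B cells and monocytes are not counted here, and 3 of the 80 cells had 10 or more dendritic UMIs. A WT replicate 2 cell with 24194 UMIs had 230 endothelial and 6633 globin UMIs beside 11 of Pf4. A WT replicate 1 cell with 13058 UMIs had 127 endothelial UMIs and 150 of Apoe. These 2 cells matter for the genotype comparison below. A Dp(10)2Yey replicate 2 cell and a WT replicate 2 cell, both called doublets, had 353 and 174 oligodendrocyte UMIs. A WT replicate 1 cell of 1403 UMIs had 69 UMIs of Pf4, 43 of megakaryocyte markers (34 of Ppbp) and 0 of Apoe and C1qa, so its only rule gene was the one that platelets also carry. A Dp(10)2Yey replicate 1 cell had 824 UMIs of Ttr, the choroid plexus transthyretin, and 4 of Pf4. The last of the 7, a cell of both routes from Dp(10)2Yey replicate 2, had 13 astrocyte UMIs beside 29 dendritic ones. Beside these, a Dp(10)2Yey replicate 2 cell had 50 UMIs of division genes, 22 of them Top2a. The name border macrophage therefore describes most cells of this route and not every one.

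Against microglia of the same libraries, 264 of 6264 genes tested were higher in the macrophage route (4.21%) and 338 were lower (5.4%), by the edgeR quasi-likelihood test with the library as a block and a Benjamini-Hochberg adjusted p value under 0.01. The genes of the rule were left out of the test, but genes that go with them in a cell type follow the choice. All 4 libraries moved the same way for 212 of the higher and 328 of the lower genes. The median log2 difference over all genes was -0.22. The balance depended on scaling: TMM over all genes put that median at -0.59 and gave 192 higher and 652 lower, and RLE put it at -0.28 with 252 and 392. DESeq2, which changes the test as well as the scaling, put it at -0.33 with 191 and 227. Without the library block 339 were higher and 562 lower, and without a filter on low counts 528 and 297. Without called doublets 240 were higher and 315 lower. Leaving out WT replicate 1 gave 222 higher and 211 lower, and Dp(10)2Yey replicate 2 gave 239 and 178.

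The border macrophage list carried the strongest contrast. Of its 28 genes 23 could be tested, 20 were higher (4.21% of all genes were), 2 were lower and 1 was not called. The median was 8.80, or 7.80 with the 5 genes at 0 in microglia set at their bounds, against -0.22 over all genes. Cd209b, Ednrb, Timd4, Fcna and Lilra5 were too sparse to test. RLE, TMM over all genes and DESeq2 each called 19 of them higher, the gene lost being Maf. The lower genes were 1 without WT replicate 1, WT replicate 2 or Dp(10)2Yey replicate 2. Genes with 0 to 2 UMIs in microglia, among them the 5 at 0, passed the filter on low counts only through the macrophage route. Their direction was thus set before the test, and the count and the median include them. Without that filter all 28 genes were tested, with 23 higher, 2 lower and a median of 7.77.

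**Figure D3:**
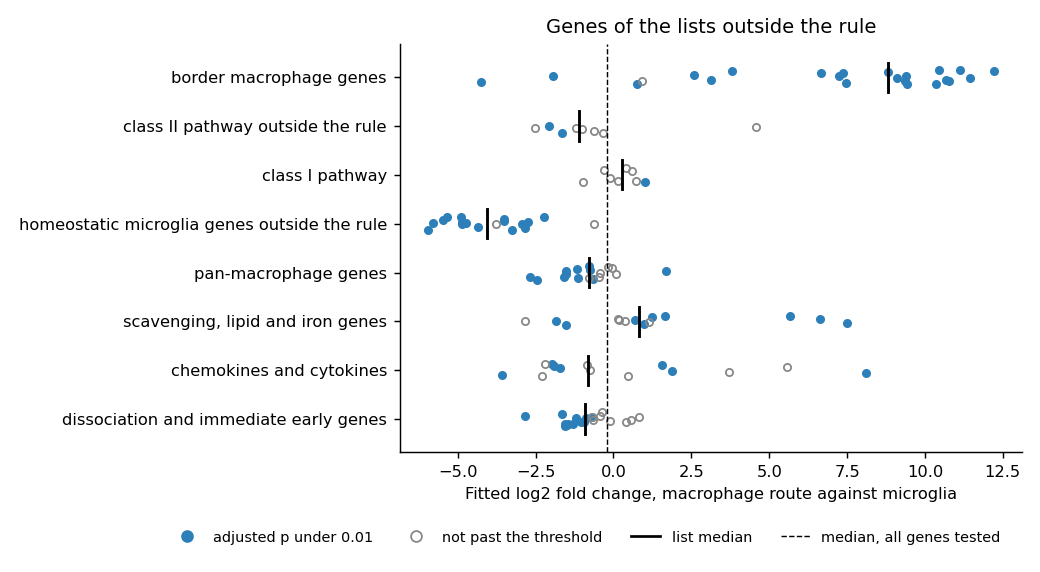
Log2 difference of macrophage route over microglia for every tested gene of 8 lists; filled points have an adjusted p value under 0.01, bars are list medians and the dashed line is the median over all genes. Border macrophage genes lie far above 0 and homeostatic microglia genes far below.

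The genes with the largest fitted rise had 0 to 2 UMIs in microglia. Cd209f, a C-type lectin, stood at 323, 369, 390 and 792 CPM in the macrophage route and at 0 UMIs in microglia. With 143 UMIs against 0 it was at least 1770-fold higher, taking 3 UMIs as the floor. Lyve1, the hyaluronan receptor of perivascular macrophages, stood at 215, 128, 65.1 and 303 CPM and also at 0 in microglia, so at least 695-fold higher. Both genes were present in each macrophage-route library and absent from each microglia library. Cd209a, a relative of Cd209f, ranged widely, with 26.9, 353, 130 and 621 CPM against 0 UMIs (at least 1300-fold). It was low in WT replicate 1 and lost its call without the library block, though its fitted log2 difference stayed as large (11.79 against 11.70). F13a1, the A chain of coagulation factor XIII, stood at 350, 433, 976 and 629 CPM. Microglia held 1 UMI of it, a ratio of 5060 with a counting interval of 893 to 201000. Clec10a, Cbr2 and Folr2, a galactose lectin, a carbonyl reductase and a folate receptor, had 55, 87 and 57 UMIs against 1, 1 and 2. Clec4n, Ifi203 and Cd209g also had 0 UMIs in microglia, at least 645-fold, 558-fold and 484-fold higher. Fitted folds of genes with 0 to 2 UMIs depend on the prior count and are no bound.

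Other genes of the list had transcripts in both populations. Stab1, the endocytic receptor stabilin-1, stood at 458, 578, 1301 and 870 CPM in the macrophage route and at 89.1, 77.6, 82.3 and 91.3 in microglia. All macrophage-route values lay above all microglia values, with a log2 difference of 3.14 (SE 0.28, adjusted p value 1.61e-27). Dab2, an endocytic adaptor, stood at 1023, 819, 781 and 1266 CPM against 6.92, 9.75, 8.34 and 12.6. Again the populations did not overlap, and the log2 difference was 6.66 (SE 0.31, adjusted p value 1.49e-96). At 500 UMIs a cell Dab2 was seen in 33.8% of macrophage-route cells and 0.539% of microglia, and unthinned in 62.5% and 3.82%. Wfdc17, a small secreted protein, stood at 1885, 1140, 976 and 1343 CPM against 0.866, 1.63, 7.78 and 0.822. Its log2 difference was 9.09 (SE 0.34, adjusted p value 9.42e-123), with every macrophage-route library high. Ccl24, an eosinophil-attracting chemokine, was at 323, 321, 846 and 955 CPM in the macrophage route, and its log2 difference from microglia was 7.24. The growth factor Igf1, with 5 UMIs in microglia, was higher by 8.80 (SE 0.68) and the TAM-receptor ligand Gas6 by 2.58 on the log2 scale.

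Other members of the list rested on smaller differences. The transcription factor Maf stood at 943, 739, 1887 and 1072 CPM against 773, 644, 611 and 585. Maf overlapped between the populations and was called higher by 0.75 (SE 0.21, adjusted p value 0.00389), a call lost under RLE (0.57), TMM over all genes (0.22) and DESeq2 (0.57), and without WT replicate 2 (0.81), Dp(10)2Yey replicate 1 (0.51) or Dp(10)2Yey replicate 2 (0.79). It was lost without a filter on low counts as well, where more genes were tested and the difference stayed at 0.75. Blnk, an adaptor of B cell and myeloid signalling, fell by 1.94 on the log2 scale, and lost its call at much the same size without WT replicate 1 (-1.75), WT replicate 2 (-1.70) or Dp(10)2Yey replicate 2 (-2.08).

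Apoe, the lipid carrier, set the populations apart in every library. It stood at 40910, 30440, 42155 and 45285 CPM in the macrophage route and at 550, 927, 730 and 991 in microglia. No library came near to overlap, and the log2 difference was 5.68 (SE 0.15). It was seen in 79 of the 80 cells. The 975 oligodendrocytes, with a median of 5020 UMIs, held 2561 CPM, above the level in microglia, and how much of that is free RNA was not tested. At 500 UMIs a cell it was seen in 97.5% of macrophage-route cells, 61.2% of oligodendrocytes and 19.95% of microglia, and unthinned in 98.8%, 91.6% and 48.0%.

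**Figure D4:**
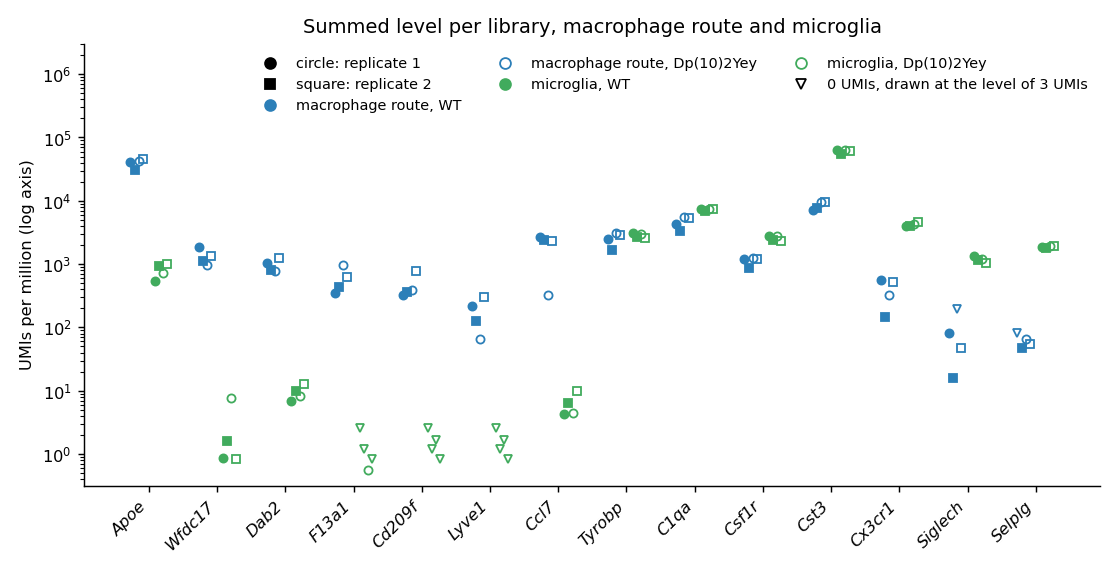
CPM of named genes in each library on a log scale, macrophage route in blue and microglia in green, WT filled and Dp(10)2Yey open, circles replicate 1 and squares replicate 2. Triangles mark 0 UMIs, drawn at the level of 3 UMIs.

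Of the scavenging, lipid and iron list, 14 of 16 genes were tested: 7 were higher, 2 lower and 5 not called, with a median of 0.83. Over all genes 4.21% were higher and 5.4% lower. RLE and DESeq2 called 5 higher and TMM over all genes 4, with a median of 0.28 there. The scavenger receptors Msr1 and Cd36 were higher by 6.63 and 7.50 on the log2 scale. Slc40a1, the iron exporter ferroportin, was higher by 1.65 (SE 0.34). The ferritin chains Fth1 and Ftl1 were higher by 1.23 and 0.68, but Ftl1 lost its call under RLE (0.49), TMM over all genes (0.13) and DESeq2 (0.49) and without Dp(10)2Yey replicate 1 (0.56). Fth1 lost it under TMM over all genes (0.68), and oligodendrocytes held more of it, 22058 CPM. Lysosomal proteases went both ways: Ctsd fell by 1.85 and Ctsl fell by 1.54 on the log2 scale, while Ctsb was higher by 0.98, a call lost under RLE (0.79), TMM over all genes (0.44) and DESeq2 (0.80).

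Genes that mark resting microglia were low in the macrophage route beyond those the rule used. All 18 of the list were tested, 0 were higher and 16 were lower (5.4% of all genes were), with a median of -4.05. Cx3cr1, the fractalkine receptor, stood at 566, 144, 325 and 520 CPM against 4041, 4052, 4243 and 4560, and fell by 3.52. Selplg, the ligand of P-selectin, stood at 0, 48.2, 65.1 and 54.4 CPM against 1859, 1774, 1920 and 1911, and fell by 5.46. For both genes every macrophage-route library was below every microglia library. Sall1, the factor that maintains microglial identity, had 1 UMI in the macrophage route and 2346 in microglia, 63.1 times lower in CPM with a counting interval of 11.3 to 2490. The lectin Siglech and the secreted Olfml3 fell by 4.87 and fell by 5.34 on the log2 scale. Cst3, a protease inhibitor, stood at 7110, 7610, 9433 and 9497 CPM, far below the microglial 62988, 55781, 63865 and 61955, a fall of 2.85 on the log2 scale. Fcrls and Sparc were the 2 not called. Fcrls stood at 808, 690, 781 and 893 CPM against 1300, 1209, 1140 and 1272, lower in each library with a log2 difference of -0.62 (adjusted p value 0.0214). Sparc differed by -3.76 (adjusted p value 0.242), but 48 of the 50 WT UMIs sat in the 2 cells with endothelial transcripts, and without those cells it was called lower at -7.34.

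The genes with the largest fitted fall had 0 UMIs in the macrophage route, so that only a bound on their fold was measured. They passed the filter on low counts only through microglia, so their direction was set before the test. The same holds for Sall1, Slc2a5 and Sall3 of the resting microglia list, with 1 UMI each in the macrophage route. Nav3, a neuron navigator protein, had 0 UMIs against 1794 in microglia, at least 16.1-fold lower. Gtf2h2, Col27a1, Lrrc3, Parvg and Rtn4rl1 also had 0, against 1131, 1116, 1029, 835 and 804 UMIs (at least 10.1-fold, 10.0-fold, 9.22-fold, 7.48-fold and 7.20-fold). Lrrc3 lies within the duplicated stretch. Tlr3, the receptor for double-stranded RNA, Mlxipl and Atp8a2 (736, 717 and 550 UMIs, at least 6.59-fold, 6.42-fold and 4.93-fold) were not called without Dp(10)2Yey replicate 2, whose cells give most of the depth. Their fitted log2 differences stayed about as large without that library (-9.17, -9.19 and -8.71 against -9.59, -9.52 and -9.19). The bounds say how far 243572 UMIs of the macrophage route can reach and not how large the differences are.

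Genes shared by macrophages differed less. Of 17 pan-macrophage genes 1 was higher (4.21% over all genes), 10 were lower (5.4%) and 6 not called, with a median of -0.79. So the count of higher genes lay near that of all genes. Leaving out WT replicate 1 or Dp(10)2Yey replicate 2 gave 6 lower. Without cells with 10 or more UMIs of another class the count was 1 higher and 5 lower with a median of -0.32, and DESeq2 gave 1 and 7. Adgre1, the F4/80 antigen, was the higher gene, at 431, 273, 911 and 311 CPM against 141, 117, 168 and 109. Its log2 difference was 1.67 (SE 0.31), with every macrophage-route library above every microglia library. Csf1r, the receptor that macrophages need to survive, stood at 1212, 883, 1236 and 1211 CPM against 2735, 2364, 2762 and 2282, lower in all 4 libraries with a log2 difference of -1.14 (SE 0.18). C1qa, a chain of the first complement component, stood at 4255, 3307, 5595 and 5280 CPM against 7359, 6974, 7342 and 7380. C1qa differed by -0.66 and C1qb by -0.77, and both lost their call without the 2 cells with endothelial transcripts (-0.39 and -0.49). C1qa also lost it without WT replicate 1 (-0.60) or Dp(10)2Yey replicate 2 (-0.64). The signalling adaptor Tyrobp, at 2451, 1670, 3123 and 2935 CPM against 3148, 2698, 3030 and 2599, differed by -0.19 and was not called. The integrin Itgam fell by 2.69 on the log2 scale, the phagocytic receptor Mertk fell by 2.46 and the transcription factor Irf8 fell by 1.53.

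Monocyte chemokines were abundant in a subset of cells. Of the chemokine and cytokine list 14 of 16 genes were tested: 3 were higher (4.21% over all genes), 4 lower (5.4%) and 7 not called, with a median of -0.80 (RLE 3 and 6, TMM over all genes 4 and 8). Leaving out Dp(10)2Yey replicate 1 gave 6 higher and 5 lower, and WT replicate 2 gave 4 and 2. Ccl7, a ligand of CCR2, stood at 2666, 2392, 325 and 2298 CPM against 4.33, 6.50, 4.45 and 9.87 in microglia. Ccl7 was low in Dp(10)2Yey replicate 1 yet above every microglia library, and its log2 difference was 8.11 (SE 0.29). It was seen in 29 of 80 cells with up to 63 UMIs. Ccl2, the main ligand of CCR2, stood at 2047, 3115, 0 and 2291 CPM against 104, 132, 104 and 182. With 0 UMIs in Dp(10)2Yey replicate 1 it was not called (3.70, SE 1.02, adjusted p value 0.169), but it was called without that library (4.21), under TMM over all genes (3.18) and after thinning (3.93). Cxcl2, a neutrophil chemokine, stood at 135, 1509, 0 and 1786 CPM against 0, 44.7, 21.1 and 15.9. It was high in WT replicate 2 and Dp(10)2Yey replicate 2 and just missed the threshold (5.56, SE 0.90, adjusted p value 0.0141). Without WT replicate 2 (5.65), Dp(10)2Yey replicate 1 (6.15) or Dp(10)2Yey replicate 2 (4.95), and under TMM over all genes (5.07) and DESeq2 (5.68), it passed. Ccl4, an inflammatory chemokine, stood at 1589, 433, 130 and 1871 CPM against 4167, 4248, 4000 and 3872, lower in all 4 libraries. It was not called (-2.19, adjusted p value 0.159), but was under RLE (-2.37), TMM over all genes (-2.75) and DESeq2 (-2.57), and without WT replicate 1 (-2.57), Dp(10)2Yey replicate 1 (-1.80) or Dp(10)2Yey replicate 2 (-2.54). Its relative Ccl3, at 727, 722, 0 and 2003 CPM against 1215, 1455, 1258 and 1436, overlapped and was not called (-0.75, adjusted p value 0.665), but was under TMM over all genes (-1.31) and without Dp(10)2Yey replicate 2 (-1.14).

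Further members of the list were called. Ccl12 was at 1670, 1220, 911 and 940 CPM against 246, 380, 231 and 430, higher by 1.89. Il1b was higher by 1.57, a call lost under TMM over all genes (1.10), without WT replicate 1 (1.49) and without the cells of both routes (1.06). Il1a, its relative, fell by 3.56 on the log2 scale.

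The chemokine signal was uneven among cells. In a split chosen after the values were seen, 28 cells had 3 or more UMIs of Ccl2 and Ccl7 (4, 7, 1 and 16 by library) and 52 had fewer. The 28 cells had a median of 3703.5 UMIs and 28 UMIs of Fos and Jun, and the 52 had 1032.5 and 0. In CPM, Fos with Jun came to 7716 in the 28 cells and 2124 in the others. The split was made on UMIs that were not thinned, so deeper cells pass it more easily, and the part of depth in these differences was not tested. Of 20 immediate early and dissociation genes, 0 were higher and 12 lower than in microglia (5.4% over all genes), with a median of -0.92 against -0.22 over all genes (RLE 11, TMM over all genes 14, DESeq2 10). Fos stood at 3447, 2087, 1887 and 2935 CPM against 5814, 5327, 4747 and 5461, a fall of 1.05 on the log2 scale.

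Antigen presentation was read through its class I and class II genes. Of 8 MHC class I genes tested against microglia 1 was higher (4.21% over all genes) and 0 lower, which does not stand apart from all genes, with a median of 0.28, which turned to -0.14 under TMM over all genes. The called gene, the heavy chain H2-D1, stood at 889, 594, 1236 and 1118 CPM against 448, 473, 455 and 468. It was higher by 1.01, a call lost under RLE (0.84), TMM over all genes (0.49) and DESeq2 (0.84). Of the class II pathway outside the rule 8 of 14 genes were tested: 0 were higher, 2 were lower (5.4% over all genes) and 6 not called, with a median of -1.11. Without the cells of both routes 4 were lower. The lower genes were 2 proteases that trim the invariant chain and antigens: Ctss fell by 2.08 and Lgmn fell by 1.64 on the log2 scale. Cd74, the invariant chain that guards the class II groove, stood at 53.9, 1317, 0 and 3417 CPM against 39.8, 32.9, 36.7 and 36.2. It was high only in WT replicate 2 and Dp(10)2Yey replicate 2, the libraries that held cells of both routes, and was not called (4.58, SE 1.65, adjusted p value 0.258). Of its 524 UMIs, 515 sat in those 6 cells.

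The 2 class II chains with a promoter entry, H2-Aa and H2-Eb1, are shown because the class II route was chosen by their UMIs. The letters come from RefSeq on GRCm38.p6 and are the 250 bases before the start: chr17:34287824-34288073 on the minus strand for H2-Aa and chr17:34305617-34305866 on the plus strand for H2-Eb1. Capitals mark CTGATTGG, the letters of the Y box of class II promoters, and TGACGTCA, a cAMP response element that the X2 box resembles.
H2-Aa: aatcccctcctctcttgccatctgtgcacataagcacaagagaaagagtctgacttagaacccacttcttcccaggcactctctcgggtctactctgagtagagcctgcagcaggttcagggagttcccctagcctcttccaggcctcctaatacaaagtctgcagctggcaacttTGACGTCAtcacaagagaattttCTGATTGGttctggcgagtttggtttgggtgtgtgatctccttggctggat
H2-Eb1: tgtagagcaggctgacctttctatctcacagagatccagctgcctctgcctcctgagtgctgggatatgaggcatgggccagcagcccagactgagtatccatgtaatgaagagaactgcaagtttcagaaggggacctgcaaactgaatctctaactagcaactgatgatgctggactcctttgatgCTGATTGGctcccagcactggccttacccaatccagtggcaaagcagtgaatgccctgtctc
On either strand, CTGATTGG was found in 3.83% of all 32851 promoters of this length and TGACGTCA in 1.55%. H2-Aa held both and H2-Eb1 the first. Of 10 class II pathway genes outside the rule with a promoter entry, H2-Oa and H2-Eb2 held CTGATTGG and 0 held TGACGTCA. H2-Ab1 is named only. A match is a description of letters and shows no binding.

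The 6 cells of both routes, 2 from WT replicate 2 and 4 from Dp(10)2Yey replicate 2, have macrophage and class II transcripts by the choice of cells. Their class II genes had 22 to 351 UMIs each cell, and Apoe had 18 to 169. Stab1 had 184 UMIs (836 CPM) in the 74 cells of the macrophage route alone and 1 in the 6 cells. C1qa was at 4847 CPM in the 74 cells, 2688 in the 6 and 512 in the 13 of the class II route. Pf4 had the same order, at 5056 and 1536 CPM with 2 UMIs in the class II route. Pf4 is a gene of the rule, so its order follows from the choice of cells. Other genes had another order, with the cells of both routes highest: H2-DMa, which helps load peptides, was at 18.2, 1024 and 618 CPM. Ccr2, a receptor of monocytes, was at 0, 469 and 107 CPM, and Ctss at 1249, 2218 and 917. Of the UMIs in the 6 cells, 1 cell held 16 of the 24 of H2-DMa, and 1 cell held 9 of the 11 of Ccr2, so these orders rest on few cells. The deepest cell of the 6, with 10932 UMIs, held 9 of the Ccr2 UMIs, 25 of Cd209a and 12 of the lectin Mgl2. No test was run between these sets, because 3 libraries held fewer than 5 class II route cells.

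**Figure D5:**
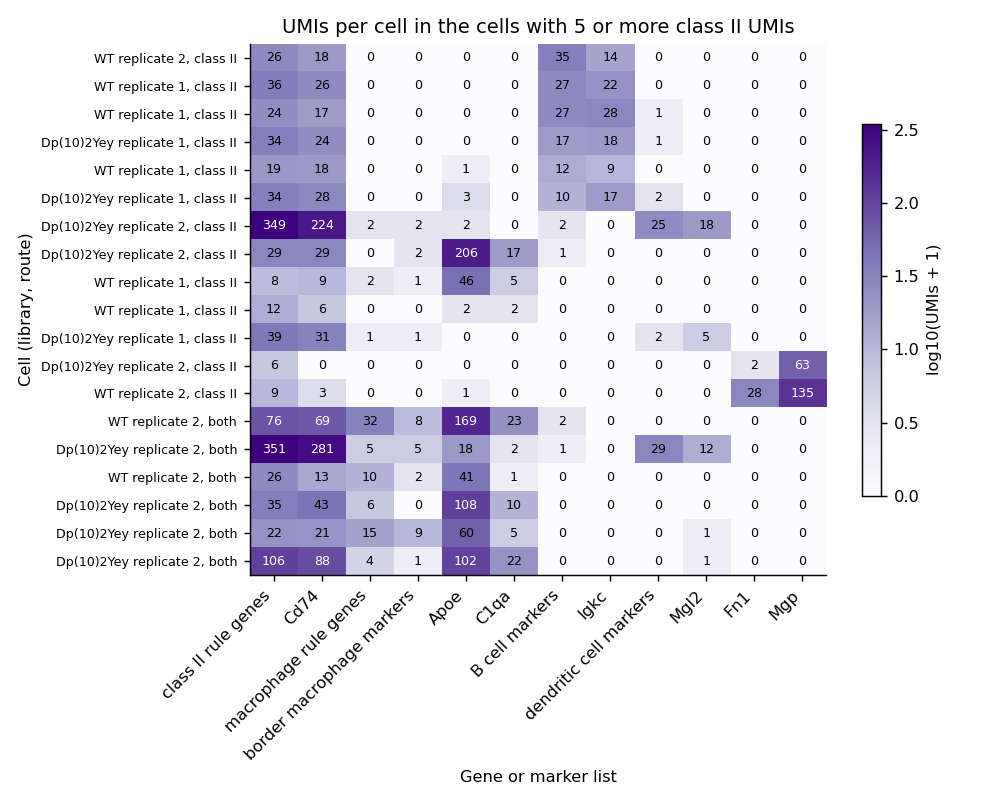
UMIs of class II, macrophage, B cell, dendritic and matrix genes (columns) in each of the 19 cells with class II UMIs above the threshold (13 of the class II route, 6 of both routes). The 6 cells with 10 or more B cell UMIs have 0 UMIs of the 4 macrophage genes of the rule.

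The 13 class II route cells were not of a single kind. In 6 of them (3, 1, 2 and 0 by library), B cell markers such as Cd79a, Ms4a1 and Ebf1 came to 10 to 35 UMIs, beside 19 to 36 class II UMIs at 1748 to 2334 UMIs in all. The 108 UMIs of Igkc, the kappa light chain, were all in these 6 cells, with 0 in the macrophage route and in microglia. Another cell, from Dp(10)2Yey replicate 2 with 10168 UMIs, had 349 class II UMIs, 25 UMIs of dendritic markers (19 of Cd209a, 4 of Flt3) and 18 of Mgl2. The last 6 had under 10 UMIs of either list. Among them, a Dp(10)2Yey replicate 2 cell had 206 UMIs of Apoe, 62 of Lyz2, 17 of C1qa and 29 of class II. A WT replicate 1 cell of 776 UMIs had 46 of Apoe and 8 of class II. A WT replicate 2 cell of 9670 UMIs had 135 of Mgp, a matrix protein, 28 of Fn1, 9 of class II and 22.1% mitochondrial RNA. A Dp(10)2Yey replicate 2 cell of 6991 UMIs had 63 of Mgp, 6 of class II and 0 of Cd74. The name MHC class II cells thus covers cells with B cell, dendritic, macrophage and matrix transcripts, and the text keeps to the route.

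Between genotypes, 17 of 702 genes tested in the macrophage route were called (2.42%), 0 higher and 17 lower in Dp(10)2Yey (edgeR quasi-likelihood, adjusted p value under 0.01). The unadjusted p value was under 0.05 for 74, and DESeq2 called 19. Among them were 3 of the 5 endothelial markers, Cldn5, Flt1 and Ly6c1. Itm2a, a membrane protein, had 98, 78, 0 and 0 UMIs, with both WT libraries high. Cldn5, the tight-junction claudin of brain endothelium, had 61, 99, 0 and 1 UMIs. The 2 WT cells with over 100 endothelial UMIs held all 176 Itm2a and 159 of the 160 WT Cldn5 UMIs. Over the 17 genes they held 1165 of 1202 WT UMIs (96.9%), while Dp(10)2Yey held 14 in all. The exception was Ctla2a, with 67 of 96 WT UMIs (69.8%) in the 2 cells, 29 in other WT cells and 4 in Dp(10)2Yey. Without the 2 cells 0 of 437 genes were called by edgeR, 21 had an unadjusted p value under 0.05, and 0 of the 17 had enough UMIs to be tested. Over all 93 cells 6 of 806 genes were called (0.744%), all lower, with 619 of 659 WT UMIs (93.9%) in the same 2 cells; DESeq2 called 13. In microglia edgeR called 0 of 9336 (0%), with 256 at an unadjusted p value under 0.05 and 0 by DESeq2. With the replicate number as a block the calls were 23 in the macrophage route, 23 over all 93 cells and 8 in microglia.

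These counts changed with single libraries and cells. In the macrophage route the 17 calls became 32 without WT replicate 1, 2 without Dp(10)2Yey replicate 2 and 2 without the cell with over 20% mitochondrial RNA. Without that cell the fitted differences barely moved, as in Flt1 (-8.98 against -9.01) and Ly6c1 (-8.75 against -8.79). Without called doublets there were 19 calls in the macrophage route and 4 over the 93 cells. Over the 93 cells the 6 became 47 without WT replicate 1, 14 without WT replicate 2, 38 without Dp(10)2Yey replicate 1 and 0 without Dp(10)2Yey replicate 2 (edgeR, 79 at an unadjusted p value under 0.05). Higher in Dp(10)2Yey were 3 of the 14 and 3 of the 38. Without Dp(10)2Yey replicate 2 the fitted differences stayed large, as in Cldn5 (-9.00 against -7.74) and Flt1 (-8.22 against -8.98). In microglia the 0 became 20, 6, 41 and 3 without the same libraries in turn.

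Apoe, C1qa and Ccl24 were tested by genotype in the macrophage route and not called. Apoe differed by 0.07 (SE 0.23) and C1qa by 0.30 (SE 0.28) on the log2 scale. Of the border macrophage list 14 genes were tested and 0 called, while 17 of 702 (2.42%) were called over all genes. The list median was 0.56 against -0.14 over all genes. In WT replicate 1, a cell with endothelial transcripts held 13058 of the 37130 macrophage-route UMIs. In WT replicate 2, another such cell held 24194 of 62286. The part of these cells in the list median was not tested. Ccl24 was at 1.22 with an adjusted p value of 0.217. These p values miss the threshold and do not show that the genotypes are equal.

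Of 62 protein-coding genes in the duplicated stretch, 61 are in the files, 27 had a UMI in the 93 cells and 8 had 20 or more. Summed over the stretch, the 93 cells held 936, 1052, 1283 and 1528 CPM, from 42, 78, 26 and 231 UMIs. Both Dp(10)2Yey values lay above both WT values. The 2 WT cells with endothelial transcripts held 13058 of 44891 UMIs in WT replicate 1 and 24194 of 74165 in WT replicate 2. They count in the totals that set these CPM. Their part in this order, and in that of Cstb below, was not tested. Microglia stood at 1014, 1041, 1596 and 1540 CPM, in the same order of genotypes. Only Cstb, a cysteine protease inhibitor, was deep enough to test in the 93 cells. It stood at 200, 135, 247 and 357 CPM, again higher in both Dp(10)2Yey libraries, and was not called (0.74, adjusted p value 0.955). In microglia 27 genes of the stretch were tested, 26 were fitted above 0 and 0 were called, with a median of 0.56 against 0.00 over all genes.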

How the data were processed

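The authors' deposited files hold UMI counts per barcode and gene, made with Cell Ranger 3.0.2 on mm10 according to the submitters' processing notes. They give 1039, 1708, 1372 and 2345 barcodes with 3002546, 6848466, 5112759 and 9612011 UMIs. Barcodes with at least 200 genes were kept (1022, 1686, 1355 and 2218, median UMIs 2075, 3690.5, 3402 and 3683.5). Doublets were called with Scrublet in each library (52 cells) and kept, as an alternative leaves them out. Shares were compared by an exact permutation test over libraries, and their intervals are Clopper-Pearson 95% intervals.

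UMIs were summed per library and cell set, so the spread is between mice and pooled across genes, and single cells are not replicates. The edgeR quasi-likelihood test (filterByExpr, robust) was fitted over all genes with Benjamini-Hochberg adjustment at 0.01, with the library as a block for macrophage route against microglia. TMM factors came from genes expected at 10 or more UMIs in the smallest sum. This was tested on simulated data: TMM over all genes put unchanged genes too low in the comparison with microglia, though not between genotypes. The simulation drew both sets from a shared profile with few changed genes. It lacks the strong differences between the real sets, so it does not settle which scaling is right here. The scaling over abundant genes was chosen after the real counts of calls had been seen. Other settings were RLE factors, DESeq2, no filter, thinning (seed 1), leaving out cells or libraries, and a replicate block. Those for TMM over all genes and for cells with 10 or more UMIs of another class or over 100 endothelial UMIs were chosen after seeing the data. Comparisons were made only where each set had at least 5 cells in every library. The members and lists were chosen with earlier results of these data known. Named genes are the genes of the rule, the most abundant members of each list, the 10 largest rises and falls among called genes that move the same way in all libraries with at least 20 UMIs in the higher set, and genes of the duplicated stretch. Detection was also computed at 500 UMIs a cell, and bounds for 0 UMIs assume 3. Motifs were searched on both strands. Work used python 3.11.15, numpy 2.4.6, scipy 1.17.1, pandas 2.3.3, scanpy 1.11.5, matplotlib 3.10.9, R 4.3.3, edgeR 4.0.16, limma 3.58.1 and DESeq2 1.42.0.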

Additional observations from a re-analysis of the deposited data

How the results depend on the processing

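The main limits are 2 mice for each genotype, 80 and 13 cells, and a shallow macrophage route. The 3 comparisons planned for the class II route (by genotype, against microglia and against the macrophage route) were not run, because 3 libraries held fewer than 5 such cells. Leaving out a library leaves 1 in a group, which is assumed to vary like the others. Where a value below moved, the cause was not tested unless fewer cells or genes show it.

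The difference in macrophage-route share, -0.0604 points, was 0.0508 after thinning to 1000 UMIs, 0.0280 without cells with UMIs of other classes and 0.158 without cells with 10 or more UMIs of another class. It was -0.407 as a share of the cells chosen and microglia, -0.0988 with 0 microglia UMIs, -0.0939 with no gene minimum and -0.000915 at thresholds of 3 and 4 UMIs, and ran from -0.667 to 0.546 without each library in turn. The class II share difference, -0.126, was 0.0249 after thinning, -0.351 as a share of the cells chosen and microglia, -0.294 without cells with UMIs of other classes and -0.00194 at thresholds of 8 and 10 UMIs, and ran from -0.311 to 0.0597.

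Macrophage route against microglia gave 602 calls, 247 of 651 genes after thinning, and 414 to 686 without each library. Among the named genes 92 were called, against 55 after thinning and 82 to 92 without each library. These counts include genes that gained a call and are not shares of the 92. Without Dp(10)2Yey replicate 1, for example, Dusp1, Ftl1 and Maf lost the call while Ccl2, Ccl4 and Cxcl2 gained it. Over the single genes, 2085 values kept direction and side of the threshold, 120 lost the call, 47 gained it and 0 turned.

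Genotype in the macrophage route gave 17 calls: 26 with RLE, 26 with TMM over all genes, 46 without a filter, 0 without cells with UMIs of other classes, 2 without cells over 20% mitochondrial, 0 without cells with 10 or more UMIs of another class, 0 without the 2 endothelial cells, 30 at an adjusted p of 0.05, and 2 to 32 without each library. Over all 93 cells the 6 calls became 27 with RLE, 25 with TMM over all genes, 13 with DESeq2, 36 without a filter, 0 without cells with UMIs of other classes, 2 without cells over 20% mitochondrial, 0 without cells with 10 or more UMIs of another class, 0 without the 2 endothelial cells, 24 at 0.05, and 0 to 47 without each library. In microglia the 0 calls (edgeR, 256 at an unadjusted p under 0.05, 0 by DESeq2) became 10 without a filter, 3 at 0.05, and 3 to 41 without each library.

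With the replicate number as a block the genotype calls were 23 in the macrophage route, 23 over all 93 cells and 8 in microglia. The correlation of the deviations of same-numbered libraries was 0.249 over 702 genes, 0.171 over 806 and 0.273 over 9336. There are 2 pairs only and the labels do not say that a number marks a shared day, so replicates were not taken as pairs.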
